A study of Rattus norvegicus with 23 samples.

Results

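The 10 genes described here encode receptors that sense extracellular nucleotides, acid or the cytokine interleukin-18, and they were followed across the regions of the rat heart. They were *P2ry1*, *P2ry2*, *P2ry6*, *P2ry10*, *P2ry12*, *P2ry13*, *P2ry14*, *Gpr65*, *Gpr176* and *Il18r1*. A probe was assigned to a gene when the transcript accession printed on the array belonged to that gene. The 10 genes were read by 13 of the 21109 probes that could be named, and they were 10 of the 16544 genes on the arrays with a name. The study had singled out 6 of them (*P2ry2*, *P2ry10*, *P2ry13*, *Gpr65*, *Gpr176* and *Il18r1*) as ventricular on these same arrays. Their ventricular differences are therefore given as descriptions without a test. The other 4 (*P2ry1*, *P2ry6*, *P2ry12* and *P2ry14*) are relatives of the P2Y family that were added for comparison and were tested throughout.

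The series held 23 one-colour arrays of untreated, healthy hearts from 12 male Wistar rats aged 8 to 11 weeks. No genotype or treatment differed between the groups, which were pieces of tissue: left atrium (LA, n = 4), left ventricle (LV, n = 4), right ventricle (RV, n = 3), sinoatrial node (SA, n = 4), pulmonary vein (PV, n = 4) and pulmonary artery (PA, n = 4). V denotes LV and RV together, 7 arrays in all. An SA sample combined tissue from 2 rats, each LV was cut into 3 pieces, and blood had been largely flushed from the heart and lungs by perfusion. The labels do not say that arrays of a region came from separate rats, so the p-values measure the spread between these samples, which may be partly technical. With 12 rats for 23 arrays some arrays, also of different regions, came from the same animals, and the labels do not say which.

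Cells that are stressed, stretched or damaged release ATP and UTP, and enzymes on the cell surface break these down step by step to ADP, UDP and finally adenosine. The P2Y receptors are G protein-coupled receptors that read different products of this cascade, so that the receptor a cell carries decides which product it can sense. In the heart such receptors are found on endothelial cells, smooth muscle, myocytes, fibroblasts, platelets and resident immune cells. Immune cells also carry receptors for acid and for interleukin-18, a cytokine that is matured by the inflammasome.

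Some of the genes lie next to one another or to related genes on the rat genome. In the RefSeq gene order of assembly GRCr8, *P2ry6* and *P2ry2* were direct neighbours on chromosome 1. On chromosome 2, *P2ry13* and *P2ry12* were direct neighbours among the protein-coding genes, and *P2ry14* and *P2ry1* lay on the same chromosome. *Il18r1* lay between *Il1rl1* and *Il18rap* on chromosome 9, and *P2ry10* was next to its close copy *P2ry10b* on chromosome X. *Gpr65* lay on chromosome 6 and *Gpr176* on chromosome 3.

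RefSeq promoter windows, the 250 bases before a transcript start, were on hand for 8 of the 10 genes, with *P2ry6* and *P2ry12* missing. The windows of *P2ry1* and *P2ry2* are shown because these receptors had opposite extremes in the artery, described further on. The *P2ry1* window is chr2:147391411-147391660 on the plus strand, and the *P2ry2* stretch is the 160 bases of its window outside the gene, chr1:164779579-164779738 on the minus strand. Capitals mark GGGCGG, the GC box, on either strand (as CCGCCC on the other one).

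P2ry1: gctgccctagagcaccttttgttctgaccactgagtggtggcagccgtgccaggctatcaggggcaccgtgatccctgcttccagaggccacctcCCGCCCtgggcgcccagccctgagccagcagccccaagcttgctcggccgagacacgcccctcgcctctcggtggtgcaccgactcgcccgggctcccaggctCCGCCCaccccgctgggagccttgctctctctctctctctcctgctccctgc

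P2ry2: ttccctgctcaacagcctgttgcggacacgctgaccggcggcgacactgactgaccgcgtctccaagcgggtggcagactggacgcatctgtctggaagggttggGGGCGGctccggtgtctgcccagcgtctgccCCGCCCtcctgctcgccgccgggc

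Each of these stretches held 2 GC boxes. Among the 8 full windows, 3 held a GC box (*P2ry1*, *P2ry2* and *Il18r1*), against 30.5% of the 33469 RefSeq windows of this length. The base composition was uneven. The windows of *P2ry2*, *Gpr176* and *P2ry1* were 71.2%, 70% and 69.2% G or C, those of *Gpr65* and *P2ry13* were 36.4% and 37.6%, and the median of all windows was 51.2%. GAGGAA, a purine-rich motif bound by the Ets factor PU.1, was found on either strand in the windows of *P2ry10*, *Gpr65* and *Il18r1*, and in 23.3% of all windows. In *P2ry10*, *P2ry13*, *Gpr65* and *P2ry14* the whole window lay inside the gene's own span, downstream of another start. In *Il18r1* 217 of the 250 bases lay inside the gene's span, with its GC box and its GAGGAA among them.

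The regions carried the markers of their labels. The summed intensity of 4 ventricular myocyte markers was 1228740 to 1462780 on the LV arrays and 1111310 to 1464540 on the RV arrays, against 326942 to 399676 in LA and 4845.8 to 26101.4 in PA. Atrial myocyte markers (5 genes) summed to 1373190 to 1673590 in LA, 237646 to 423208 in V, 1286600 to 1758140 in PV and 3315 to 38999 in PA. The PV pieces thus carried atrial myocyte markers at the level of LA. PA against PV therefore compares an artery with tissue rich in myocyte markers. Smooth muscle markers (6 genes) reached 656460 to 786355 in PA against 58094 to 91249 in PV. Pacemaker markers (3 genes) were at 4187 to 4749 in SA against 456 to 708 in LA and 2527 to 3280 in PV. Between 58.6% and 79.8% of the probes were well above background on an array, and no spot was saturated.

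**Figure D1:**
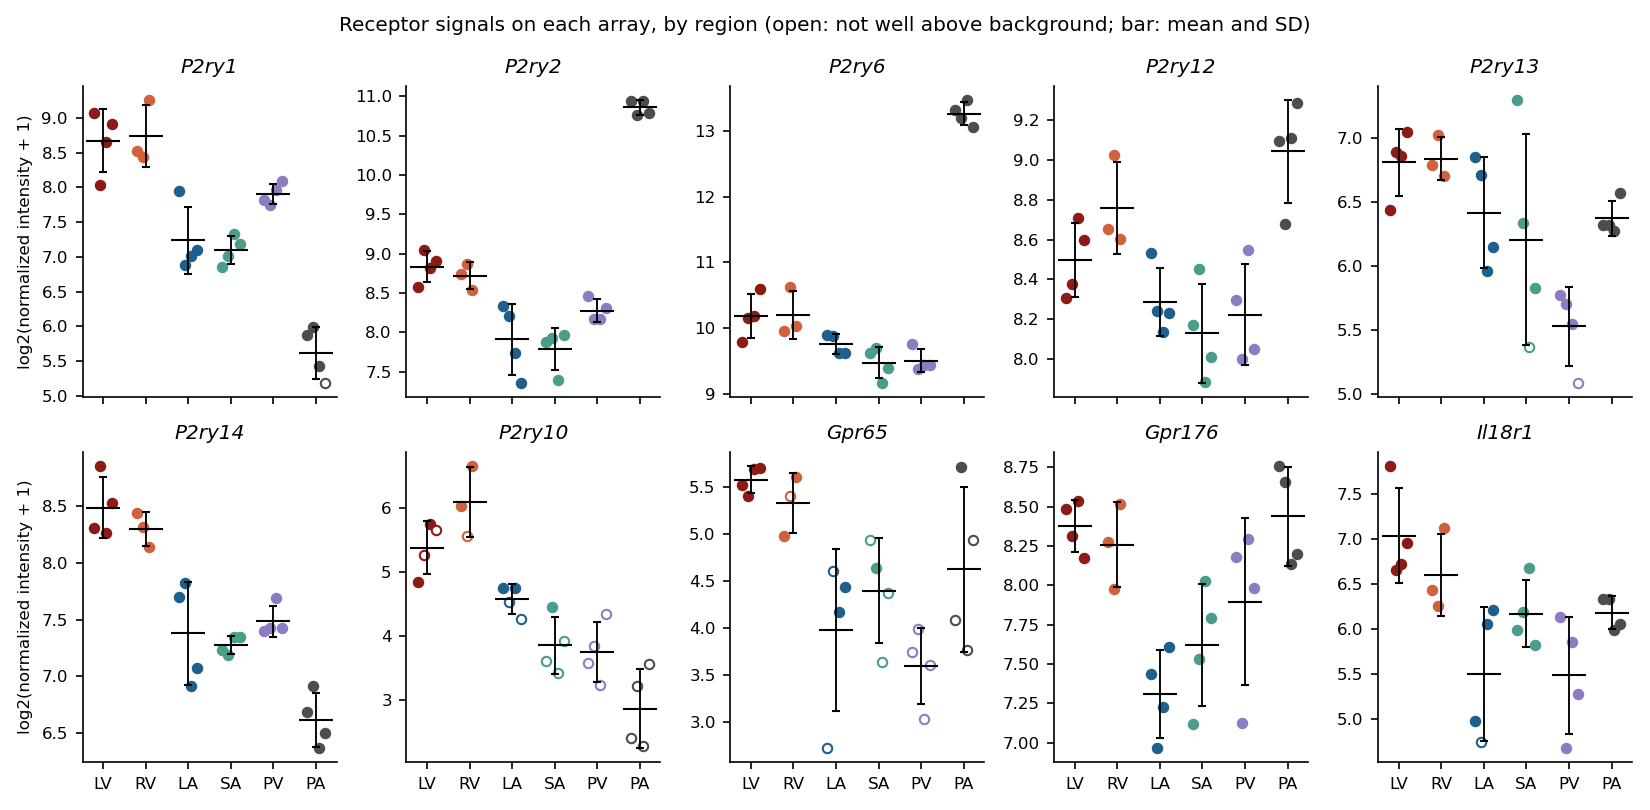
Normalized intensity (log2 of intensity plus 1) of each of the 10 receptor genes on every array, by region, with the regional mean and SD as bars and open points for probes not well above background. *P2ry2* and *P2ry6* stand highest on the 4 PA arrays, *P2ry1* and *P2ry14* stand lowest there, and the LV and RV ranges overlap for each gene.

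Among the receptors for ADP, *P2ry1* encodes the Gq-coupled ADP receptor that starts platelet shape change and is also found on endothelium. Its intensity was 536, 262, 400.5 and 483 on the LV arrays and 369, 345 and 612 on the RV arrays. In LA it was 247, 117, 128 and 136, in SA 115, 129, 159.8 and 144, in PV 225, 215, 249 and 271, and in PA 57.7, 62.4, 42.1 and 35.5. Every V array was above every LA, SA and PA array, the lowest V array lay within the PV range, and the PA arrays were below all others. Its probe cleared the background on 3 of the 4 PA arrays and on all arrays elsewhere.

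In V, *P2ry1* was 2.77-fold higher than in LA (1.47 ± 0.23 SE on the log2 scale, limma adjusted p = 3.82e-05) and 3.05-fold higher than in SA (1.61 ± 0.23, adjusted p = 1.84e-05). The difference from PV was smaller, 1.74-fold (adjusted p = 0.00981). That from PA was the largest of its differences, 8.49-fold (3.09 ± 0.23, adjusted p = 3.12e-10). Between the vessels, *P2ry1* was 4.88-fold lower in PA than in PV (adjusted p = 2.19e-07). A dimmer probe of *P2ry1* gave log2 differences of 1.37 for V against LA, 1.82 against SA and 0.68 against PV, but cleared the background on 1 of 4 SA arrays and on no PA array.

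*P2ry12* encodes the Gi-coupled ADP receptor of platelets and microglia, the target of clopidogrel. Its intensities were 316, 332, 417 and 386 in LV, 402, 519.7 and 387 in RV, and 369.8, 301, 281 and 299 in LA. SA gave 287, 349.9, 235 and 256, PV 314, 255, 373 and 264, and PA 545, 409, 551 and 624. The ranges of neighbouring regions in this order of levels overlapped throughout, with PA at the top and SA at the bottom. V was 1.41-fold above SA (0.50 ± 0.14, adjusted p = 0.0112), 1.32-fold above PV (adjusted p = 0.0332) and 1.33-fold below PA (adjusted p = 0.0166), whereas the difference from LA was 0.34 (95% CI 0.05 to 0.64, adjusted p = 0.068). These calls depended on single arrays and on the processing. Without SA replicate 3 the adjusted p for V against SA was 0.0552, and without PA replicate 4 that for V against PA was 0.0753. The call against PV was lost without LV replicate 3 (adjusted p = 0.058), LV replicate 4 (0.051), RV replicate 2 (0.0795), PV replicate 2 (0.122) or PV replicate 4 (0.107). It was also lost under the replicate block (0.0565), 75th percentile scaling (0.0646), quantile normalization (0.106), normexp background correction (0.144) and a fit of only the arrays compared (0.0518), and normexp ended the call against SA as well (0.137). The call against LA appeared without LA replicate 1 (adjusted p = 0.0409) and with slide as a block (0.0497).

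PA stood 1.76-fold above PV for *P2ry12* (0.82 ± 0.16, adjusted p = 0.0002), with every PA array above every PV array.

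*P2ry13* encodes another Gi-coupled ADP receptor, found mainly on cells of the immune system, and was among the 6 receptors named by the study. Its intensities ran from 85.5 to 131 over the 7 V arrays with a median of 115. LA gave 114, 104, 61.1 and 69.7, SA 156, 79.5, 40.3 and 55.6, PV 53.6, 51.1, 45.7 and 33, and PA 79, 78.9, 76.1 and 94. Only the PV arrays lay wholly below the V arrays, and the single highest value of all 23 arrays was in SA. The V mean was 0.41 above LA on the log2 scale (95% CI -0.15 to 0.96), 0.62 above SA, 1.30 above PV and 0.45 above PA. A dimmer probe gave 0.88, 1.58, 1.37 and 0.40 in the same order, but cleared the background on 1 of 4 SA and 1 of 4 PV arrays. Under normexp the differences were 0.15 from SA and 0.54 from PV. With 1 array left out the difference from SA ran from 0.34 to 0.98 and that from LA from 0.25 to 0.55. PA was 1.79-fold above PV (0.84 ± 0.30, adjusted p = 0.0219), a call that was lost without PA replicate 4 (adjusted p = 0.0547) or PV replicate 4 (0.077), and under quantile normalization (0.0897) and normexp (0.0989).

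Among the receptors for uracil nucleotides, *P2ry6* and *P2ry2* were highest in the artery. *P2ry6* encodes the UDP receptor, a Gq-coupled receptor known for triggering phagocytosis in microglia and contraction in arteries. Its intensities in PA were 10186, 9427, 11324 and 8519.8. Those in LV were 880, 1142, 1159 and 1552, in RV 992, 1575 and 1046, in LA 952, 942, 783 and 789, in SA 790.3, 833, 576 and 673, and in PV 867, 662, 693 and 691. The PA arrays lay far above all the others, and the 7 V arrays overlapped with LA but not with SA or PV. PA was 13.5-fold above PV (3.76 ± 0.17, adjusted p = 3.91e-13) and 8.39-fold above V (adjusted p = 7.14e-13).

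V was in turn 1.64-fold above SA for *P2ry6* (0.72 ± 0.15, adjusted p = 0.0013), 1.61-fold above PV (adjusted p = 0.00151) and 1.35-fold above LA (0.44 ± 0.15, adjusted p = 0.0314). The last of these was lost without LA replicate 3 (adjusted p = 0.0962), LA replicate 4 (0.0839), LV replicate 4 (0.0546) or RV replicate 2 (0.0841), with scaling to the 75th percentile (0.0618) and in a fit of only the arrays compared (0.0823). A dimmer probe of *P2ry6* ranged from 171 to 281 in PA and from 58.8 to 188 elsewhere. It gave a difference of 1.22 for PA against PV, 2.33-fold, and for V 0.32 against SA, -0.01 against LA and -0.89 against PA. The probes thus had the same direction in the artery and in V against SA, with very unequal sizes, and the ventricular difference from LA rested on the brighter probe.

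*P2ry2*, the neighbour of *P2ry6*, encodes the Gq-coupled receptor for UTP and ATP. Its intensities were 379.7, 526, 451 and 478 in LV, 428, 468 and 370.4 in RV, 322, 294, 213 and 164 in LA, and 234, 243, 168 and 249.8 in SA. PV gave 352, 287, 286 and 317, and PA 1959, 1738, 1959.6 and 1765. All V arrays were above all LA, SA and PV arrays, and all PA arrays were above all V arrays. As a description, V was 1.82-fold above LA (0.87), 0.98 above SA and 0.50 above PV on the log2 scale, but 4.23-fold below PA. The difference from SA was 0.64 under normexp. The difference between the vessels, which did not enter the study's choice of this gene, was 5.97-fold (2.58 ± 0.18, adjusted p = 1.57e-10). *P2ry2* and *P2ry6* had a Pearson correlation of 0.964 over the 23 arrays. This is a description over 6 regions, and the 4 PA arrays weigh heavily in it.

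**Figure D2:**
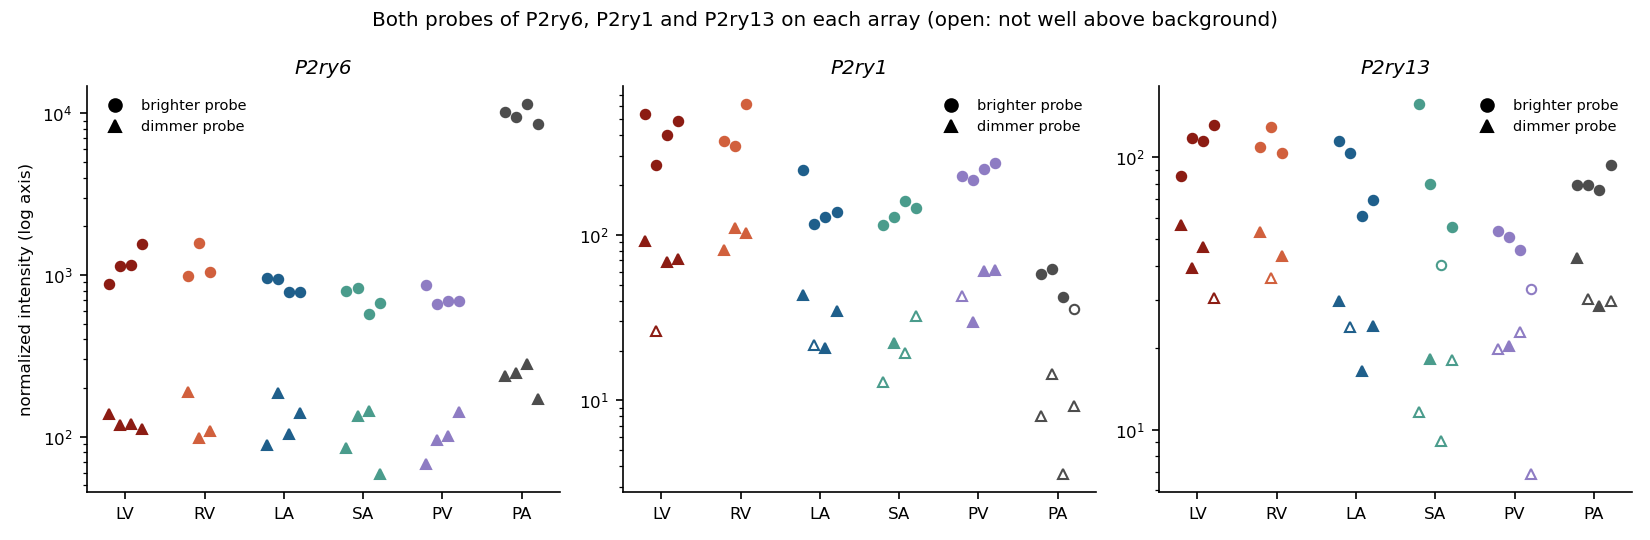
Normalized intensity, on a log axis, of the brighter (circles) and the dimmer probe (triangles) of *P2ry6*, *P2ry1* and *P2ry13* on every array, by region, with open symbols where a probe was not well above background. Both probes of *P2ry1* are lowest in PA, and the brighter probe of *P2ry6* rises much further in PA than the dimmer one, by 3.76 against 1.22 over PV on the log2 scale.

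The remaining P2Y receptors were ventricular and not arterial. *P2ry14* encodes the Gi-coupled receptor for UDP-glucose and other UDP-sugars. Its intensities were 316, 462, 306 and 368 in LV, 346, 319 and 281 in RV, 207, 226, 119.6 and 134 in LA, and 149, 145, 162 and 162 in SA. PV gave 168, 171, 205 and 171, and PA 102, 119.5, 81.4 and 89.5. The V arrays were above every array of the other regions, and the PA arrays were below all others, by a narrow margin against LA. V was 2.02-fold above LA (1.02 ± 0.16, adjusted p = 4.50e-05), 2.17-fold above SA (1.12 ± 0.16, adjusted p = 2.18e-05), 1.88-fold above PV (0.91, adjusted p = 0.000165) and 3.43-fold above PA (1.78, adjusted p = 6.17e-09). PA was 1.83-fold below PV (-0.87 ± 0.18, adjusted p = 0.000356), so *P2ry14* and *P2ry1* ran opposite to *P2ry2* and *P2ry6* in the vessels.

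*P2ry10* is placed in the P2Y family by sequence but encodes a receptor for lysophosphatidylserine found on lymphoid cells. It was dim, with 27.8, 37.4, 52.8 and 49.7 in LV, 64.9, 46.6 and 100.2 in RV, and 25.9, 22.3, 26 and 18.2 in LA. SA gave 11.2, 21, 9.8 and 14.2, PV 11, 13.4, 8.4 and 19.4, and PA 4.3, 8.3, 3.9 and 10.8. Every V array was above every array elsewhere. The probe was well above background on 4 of 7 V arrays, 2 of 4 LA arrays and 1 of 4 SA arrays, and on 0 of 4 in PV and in PA. All 7 of the arrays where it cleared the background were in row 1 of their slide, which held 3 of the 4 LA arrays but 1 each of SA and PV. Within the rows, the difference of V from LA was 0.96 and 1.24, and that from SA 1.37 and 1.84. V was 2.23-fold above LA (1.16) and 1.88 above SA on the log2 scale as measured, partly against signals not above background. The floor of an array was the lowest intensity of any probe well above background on it. With arrays not above background raised to their floor, the differences were 1.052 from LA and 1.104 from SA. Against this floor, and with its 7 arrays averaged together, V was 2.21-fold higher than PV and 2.59-fold higher than PA. The floor is not the detection limit of this probe. On 3 of the 7 V arrays the probe was itself not above background, at 37.4, 49.7 and 46.6. With normexp background correction, which compresses dim signals, the differences shrank to 0.55 against LA, 0.40 against SA, 0.54 against PV and 0.64 against PA on the log2 scale. Each of these was below its value against the floor. Whether RNA of the copy *P2ry10b* contributes to the signal of this probe was not tested.

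*Gpr65* encodes an acid-sensing G protein-coupled receptor of lymphoid and myeloid cells. Its intensities were 44.9, 41.2, 50.6 and 51.1 in LV, 30.6, 41.3 and 47.8 in RV, 5.6, 23.3, 17 and 20.6 in LA, and 29.7, 23.9, 11.5 and 19.7 in SA. PV gave 12.4, 14.9, 7.2 and 11.2, and PA 16, 51.5, 12.6 and 29.6. All V arrays were above all LA, SA and PV arrays, but a single PA array, replicate 2, was above all of V. The probe was well above background on 6 of 7 V arrays, on 2 of 4 in LA, 1 of 4 in SA and in PA, and 0 of 4 in PV. V was 2.78-fold above LA (1.47), 1.06 above SA and 0.83 above PA on the log2 scale as measured. With arrays not above background raised to the floor used for *P2ry10*, these differences were 1.28, 0.76 and 0.74. Against that floor, and with its 7 arrays averaged together, V was 1.93-fold above PV. Under normexp background correction the differences were 0.63 from LA, 0.14 from SA, 0.26 from PA and 0.40 from PV, the last below the value against the floor. With 1 array left out the difference from PA ran from 0.54 to 1.19.

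*Gpr176* encodes an orphan receptor coupled to Gz that is known from the circadian clock of the suprachiasmatic nucleus. It gave 358, 317, 369 and 288 in LV, 308, 251 and 365 in RV, 172, 124, 149 and 194 in LA, and 138, 184, 259 and 221 in SA. PV gave 289, 139, 313 and 252, and PA 432, 403, 280.5 and 292. V was wholly above LA, overlapped with SA and PV, and shared its range with PA, whose mean was the highest of the regions. As a description, V was 2.01-fold above LA (1.01), 0.70 above SA, 0.42 above PV and -0.12 from PA on the log2 scale. Without PV replicate 2 the difference from PV was 0.16, and within the rows it was 0.0044 and 1.33. *Gpr176* was thus higher in V than in LA without being higher in V than in the artery.

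*Il18r1* encodes the chain of the interleukin-18 receptor that binds the cytokine, on T cells and natural killer cells among others. Intensities in LV were 223, 100, 105 and 123, in RV 85.1, 75.4 and 138, in LA 30.4, 25.8, 65.5 and 72.8, and in SA 62.6, 72.1, 101 and 55.4. PV gave 69.1, 24.5, 56.8 and 37.7, and PA 79.5, 79.8, 62.6 and 65.4. The V arrays were above all LA and PV arrays and overlapped with SA and PA, and LV replicate 1 was the highest array of all. V was 2.50-fold above LA (1.32) and 0.65, 1.34 and 0.64 above SA, PV and PA on the log2 scale. Under normexp the differences were 0.80 from LA, 0.23 from SA, 0.65 from PV and 0.35 from PA.

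**Figure D3:**
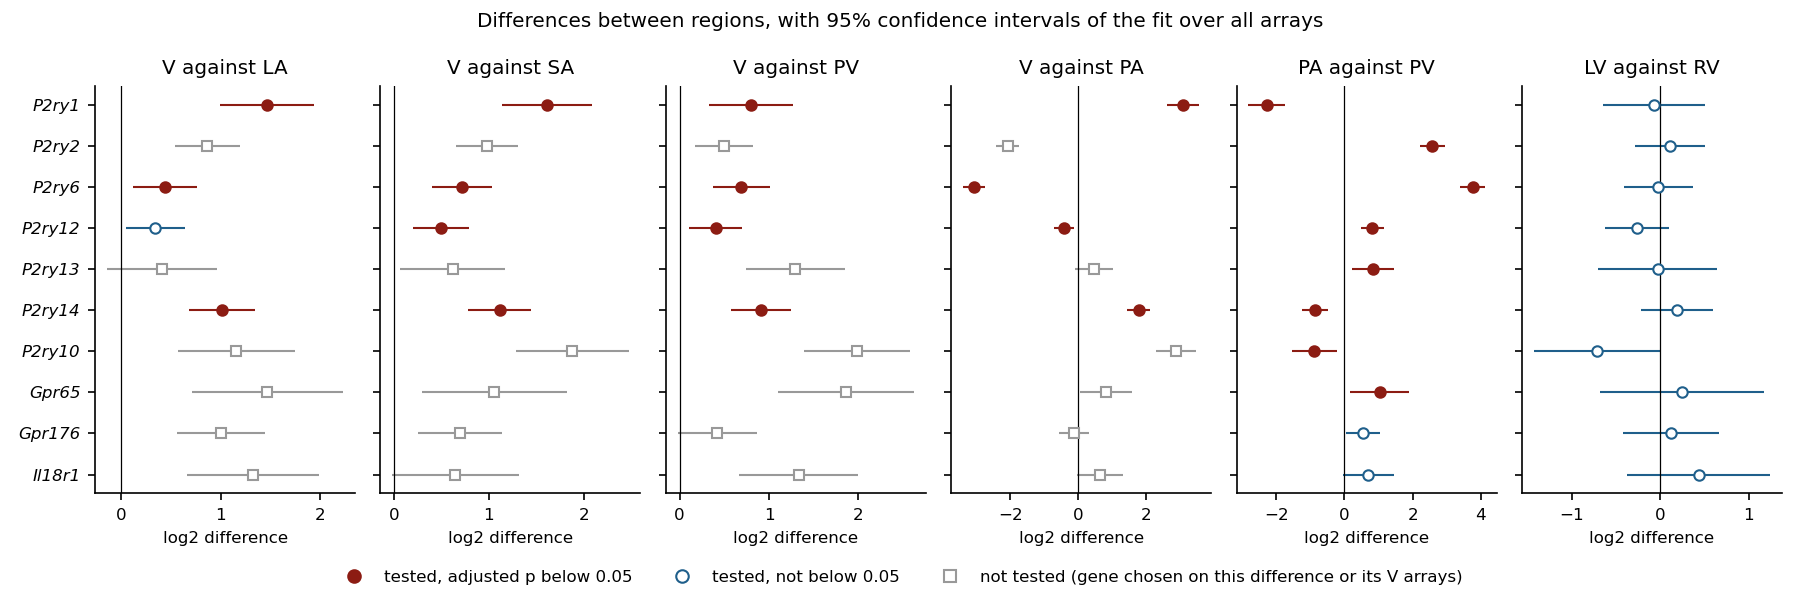
Differences of the regional means (log2) for the 10 genes with 95% confidence intervals, in a panel for each comparison. Filled points were called, open circles were tested and not called, and open squares were not tested, and *P2ry10* and *Gpr65* in PA against PV rest almost wholly on signals not above background. For the 4 tested relatives the differences of V from LA and from SA lie to the right of zero, whereas those from PA run from -3.07 for *P2ry6* to 3.09 for *P2ry1*.

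Read together, the 4 P2Y relatives differed among the 6 regions by limma's F test, with adjusted p between 8.96e-13 for *P2ry6* and 0.000286 for *P2ry12*, where 64.4% of the 16089 genes tested passed. Of these 4, 3 were higher in V than in LA, where 35.4% of all genes were called and 18.4% called higher. In V against SA 4 were higher, where 28.1% were called and 15.8% called higher, and in V against PV 4, where the shares were 33.9% and 18.3%. Against PA 2 were higher and 2 lower, beside 28.4% and 30% of all genes, 58.4% in all. Every V array was above every array of the other region for 2 of the 4 in LA (12.5% of all genes), 3 in SA (11.5%), 2 in PV (11.9%) and 2 in PA (22.3%). These 4 had a positive difference from LA and SA within each of the 3 slides and within each of the 2 rows of arrays on a slide. For *P2ry1* the difference from LA was 1.12 to 1.90 over the slides and 1.52 to 1.59 over the rows. For *P2ry14* it was 0.58 to 1.61 and 0.74 to 1.06. The difference of *P2ry12* from PV was -0.12 on the slide where it was lowest.

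The specificity measure (SPM) divides the level of a gene in one region by the length of the vector of its levels in LA, V and SA, so that equal levels give the lowest possible maximum. Across these 3 regions V held the highest SPM for all 10 genes, which was the case for 44.2% of the genes tested. For the 6 named by the study this had been the ground of their choice. It was 0.689 for *P2ry10* (0.926% of genes had as high a value), 0.678 for *Gpr65* (1.14%), 0.638 for *Il18r1* (4.26%), 0.620 for *P2ry2* (8.33%), 0.619 for *Gpr176* (8.69%) and 0.607 for *P2ry13* (14.3%). Of the relatives, *P2ry1* had 0.651 (2.65%), *P2ry14* 0.630 (5.69%), *P2ry6* 0.600 (20.1%) and *P2ry12* 0.596 (24.1%). The values of *P2ry10* and *Gpr65* rest on LA and SA levels of which 2 of 4 and 1 of 4 arrays cleared the background. The SPM of *P2ry1* and *P2ry14* thus lay among those of the genes singled out. Over all 6 regions, 2 of the 4 relatives (*P2ry1* and *P2ry14*) had their highest mean in LV or RV (36.7% of genes) and 2 (*P2ry6* and *P2ry12*) in PA (36.4% of genes). Of the 6 genes chosen by the study for V, *P2ry2* and *Gpr176* had their highest mean in PA.

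No receptor separated the ventricles. Between LV and RV, 0 of the 10 were called by limma and 0 had an unadjusted p below 0.05, where 0.522% of all genes were called. The largest difference was in *P2ry10*, lower in LV with a difference of -0.71 (95% CI -1.43 to 0.01, adjusted p = 0.474). *Il18r1* was 0.44 higher in LV (95% CI -0.37 to 1.24), and the other 8 differed by at most 0.26 in either direction. With 1 array left out, the difference ran from 0.18 to 0.69 for *Il18r1* and from -0.97 to -0.43 for *P2ry10*. With 4 and 3 arrays, intervals of this width leave room for differences of moderate size.

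Between the vessels, 8 of the 10 were called, where 53.4% of all genes were, and without PV replicate 4 the number was 5. The PV pieces carried atrial myocyte markers at the level of LA, as given above, and the PA pieces did not. *P2ry2*, *P2ry6*, *P2ry12* and *P2ry13* were higher in PA, and *P2ry1* and *P2ry14* lower. The others were *P2ry10*, whose probe was above background on no array of either vessel, and *Gpr65*, whose probe cleared it on PA replicate 2 alone, so that no direction or fold is given for them. Without that array *Gpr65* was not called (adjusted p = 0.176). *Gpr176* (0.54, adjusted p = 0.0633) and *Il18r1* (0.70, adjusted p = 0.112) were not called. *Gpr176* was called without PA replicate 3 (adjusted p = 0.0455), PV replicate 1 (0.047) or PV replicate 3 (0.031), and under normexp (0.0373), and *Il18r1* without PV replicate 1 (0.0491). With 1 array left out, the difference of *Gpr176* ran from 0.29 to 0.67, with limma adjusted p up to 0.281. That of *Il18r1* ran from 0.42 to 0.91, with adjusted p up to 0.354. The differences of *P2ry2* and *P2ry6* were 2.46 to 2.77 and 3.49 to 4.03 within slides and rows.

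Most lymphocyte and macrophage markers were higher in V than in LA, SA and PV. The marker counts below stand beside these shares of all genes tested. In V against LA, SA, PV and PA, 18.4%, 15.8%, 18.3% and 28.4% were called higher. In either direction 35.4%, 28.1%, 33.9% and 58.4% were called there, and 53.4% in PA against PV. In bulk tissue, fewer cells of a type and less RNA per cell cannot be told apart. The summed intensity of 12 lymphocyte markers was 9644 to 11083 in LV, 8863 to 9349 in RV, 3551 to 4098 in LA, 2040 to 2873 in SA, 1796 to 2157 in PV and 1559 to 2176 in PA, and 7 of them were higher in V than in LA with 0 lower. Against SA, PV and PA the counts were 7, 9 and 9 higher with 0 lower. In PA 5 of these markers were above background on no array. The gene most like *P2ry10* over the 23 arrays was *Cd2*, an adhesion molecule of T cells and natural killer cells (r = 0.939), although *P2ry10* cleared the background on 7 of the 23 arrays and *Cd2* on 1 of the 12 SA, PV and PA arrays. The part of lymphocytes in the level of *P2ry10*, *Gpr65* and *Il18r1* was not tested.

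Macrophage markers (14 genes, all of them above background) summed to 50408 to 77316 in LV, 49498 to 77489 in RV, 33780.5 to 43172 in LA, 36239 to 46018 in SA, 38447 to 40452 in PV and 70570.4 to 79253 in PA. Of the 14, 9 were higher and 1 lower in V than in LA, 11 higher than in SA and 10 higher than in PV with 0 lower, and 10 were higher in PA than in PV. The PA and V ranges overlapped. *P2ry6*, *P2ry12* and *P2ry13*, which macrophages carry, were likewise higher in V than in PV and in PA than in PV, *P2ry13* without a test in V. Their differences from PA were unlike one another, and the part of macrophages was not tested.

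Endothelial markers (8 genes) were 80480.1 to 85464 in LV and 68889 to 74104 in RV, against 40545 to 52823 in LA, 42131 to 49023 in SA, 38930 to 46143 in PV and 26849 to 51865 in PA. In V, 5 were higher than in LA, 6 than in SA, 4 than in PV and 7 than in PA with 0 lower, and 5 were lower in PA than in PV. *P2ry1* and *P2ry14* had these directions in all of these comparisons. Lymphocyte markers (6 lower and 2 higher in PA than in PV) and ventricular myocyte markers (3 lower and 1 higher) mostly had them too. Smooth muscle markers, given above, moved with *P2ry2* and *P2ry6* in PA, 6 of 6 being higher there than in PV and than in V. In V against LA 4 of the 6 were higher and 0 lower, with both receptors also higher in V, whereas 6 of 6 were lower in V than in SA and PV, where both receptors were higher in V. The part of either cell type was not tested.

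Platelet markers (6 genes) summed to 1177 to 1498 in LV, 1294 to 1444 in RV, 1021 to 1418 in LA and 1826 to 3378 in PA. None was called between V and LA, SA or PV, 2 were lower in V than in PA, and 1 was higher in PA than in PV. Of 8 mast cell markers 1 was higher in V than in LA with 0 lower, 1 higher and 2 lower than in SA, 1 higher and 1 lower than in PV, and 3 higher than in PA. Of 6 neutrophil markers 0 were higher and 2 lower in V than in LA, SA and PV. Fibroblast markers (6 genes) were 112108 to 178421 in V and 394682 to 433045 in PA, with 0 called between V and LA, 4 higher and 2 lower in V than in SA, 0 and 2 against PV, and 2 and 3 against PA. All 4 adipocyte markers were lower in V than in PV and PA.

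**Figure D4:**
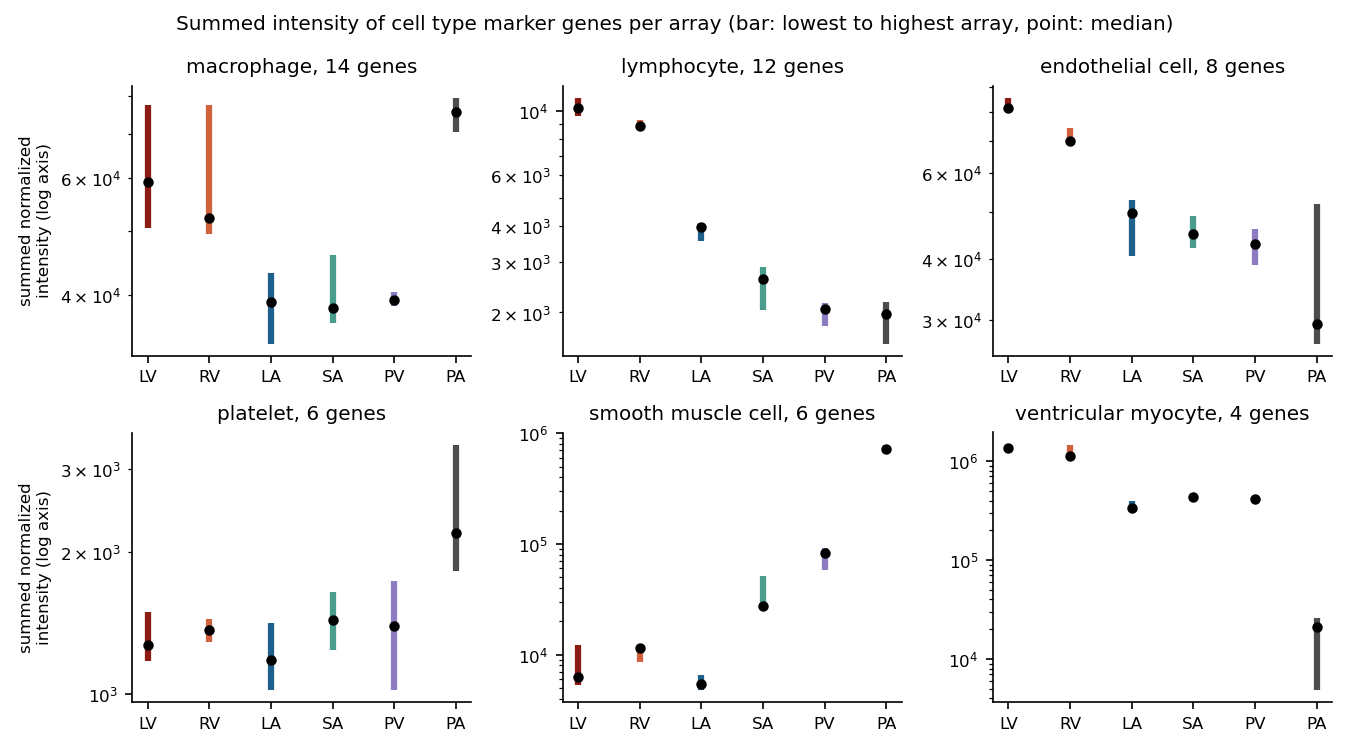
Summed normalized intensity of the marker genes of 6 cell types by region, on a log axis, with bars from the lowest to the highest array and the median as a point. Lymphocyte markers are highest in LV and RV, macrophage markers are high in LV, RV and PA, and smooth muscle markers are highest in PA.

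Around the receptors, the other parts of nucleotide signalling were uneven. Of 8 other nucleotide receptors (*P2ry4* and the ion channels *P2rx1* to *P2rx7*), 1 was higher in V than in LA and 0 lower, *P2rx7* with 0.77 (adjusted p = 0.015), whose probe cleared the background on 2 of 4 LV and 2 of 3 RV arrays. The list's median difference was 0.23, beside 0.09 over all genes tested, of which 35.4% were called. None was called against SA or PV, where 28.1% and 33.9% of all genes were. *P2rx1*, the channel of vascular smooth muscle, was 3.10 higher in PA than in PV (adjusted p = 3.77e-08), and *P2rx4* 0.67 higher. *P2rx5* was lower in PA than in PV (-3.27, adjusted p = 4.81e-09) and 2.76 higher in V than in PA, with 2 of the 4 PA arrays above background. *P2rx7* was above background on no PA array, so no fold is given for it there.

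Release and breakdown of nucleotides was covered by 13 genes. In V against LA, 2 were higher, *Ada*, which removes adenosine (1.43, adjusted p = 1.06e-08), and *Entpd2*, an ectonucleotidase that yields ADP from ATP (0.99). In the same comparison 4 were lower, led by the pannexins *Panx2* (-2.57, adjusted p = 9.60e-09) and *Panx1*, a channel through which ATP leaves cells (-2.21, adjusted p = 4.12e-08). The list's median was -0.19, beside 0.09 over all genes tested, of which 35.4% were called. Against SA 4 were higher and 4 lower, and against PV 2 and 4, with *Panx1* again lower in V (-3.74 and -2.82). The shares of all genes called there were 28.1% and 33.9%. In PA against PV 6 were higher and 6 lower, where 53.4% of all genes were called. *Entpd1*, the ectonucleotidase that takes ATP and ADP down to AMP, was 2.08 higher in PA (adjusted p = 6.86e-09) and *Enpp2* was also higher (adjusted p = 1.39e-05), while *Panx1* differed by -4.11 (adjusted p = 4.73e-12) and *Panx2* by -1.93. The artery thus had more signal from *P2ry2*, *P2ry6* and *Entpd1* and less from *Panx1* and *P2ry1* than the PV pieces, which carried atrial myocyte markers.

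*Gpr4*, the acid sensor of endothelium, was 1.32 higher in V than in LA (adjusted p = 3.73e-06) and 1.25 higher than in PA (adjusted p = 1.90e-06). In PA against PV it was lower (-0.75, adjusted p = 0.00221).

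The interleukin-18 and interleukin-1 axis gave 14 genes tested. In V against LA 5 were higher, among them *Il1b* (1.46, adjusted p = 0.00195) and *Il1rn*, the receptor antagonist (1.22), and 2 lower, *Il33* (-1.74, adjusted p = 1.49e-07) and *Il18* itself (-1.36, adjusted p = 1.26e-07). Intensities of *Il18* were 611 to 671 in LA against 221 to 284 in LV and 216 to 322 in RV, without overlap. *Il18bp*, the soluble decoy that binds the ligand, was among the 5 higher in V (1.14, adjusted p = 3.29e-08), and is named after its values were seen. The list's median was 0.15, beside 0.09 over all genes tested, of which 35.4% were called. Against SA, PV and PA the counts were 6, 4 and 4 higher and 2, 2 and 2 lower. The shares of all genes called there were 28.1%, 33.9% and 58.4%, and 53.4% in PA against PV. In PA against PV 4 were higher, among them *Irak4* (1.48) and *Myd88* (0.99), and 5 lower, among them *Il1b* (-1.92) and *Casp1* (-1.24). The probe of *Irak4* cleared the background on 1 of 4 PV arrays and that of *Il1b* on 2 of 4 PA arrays.

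**Figure D5:**
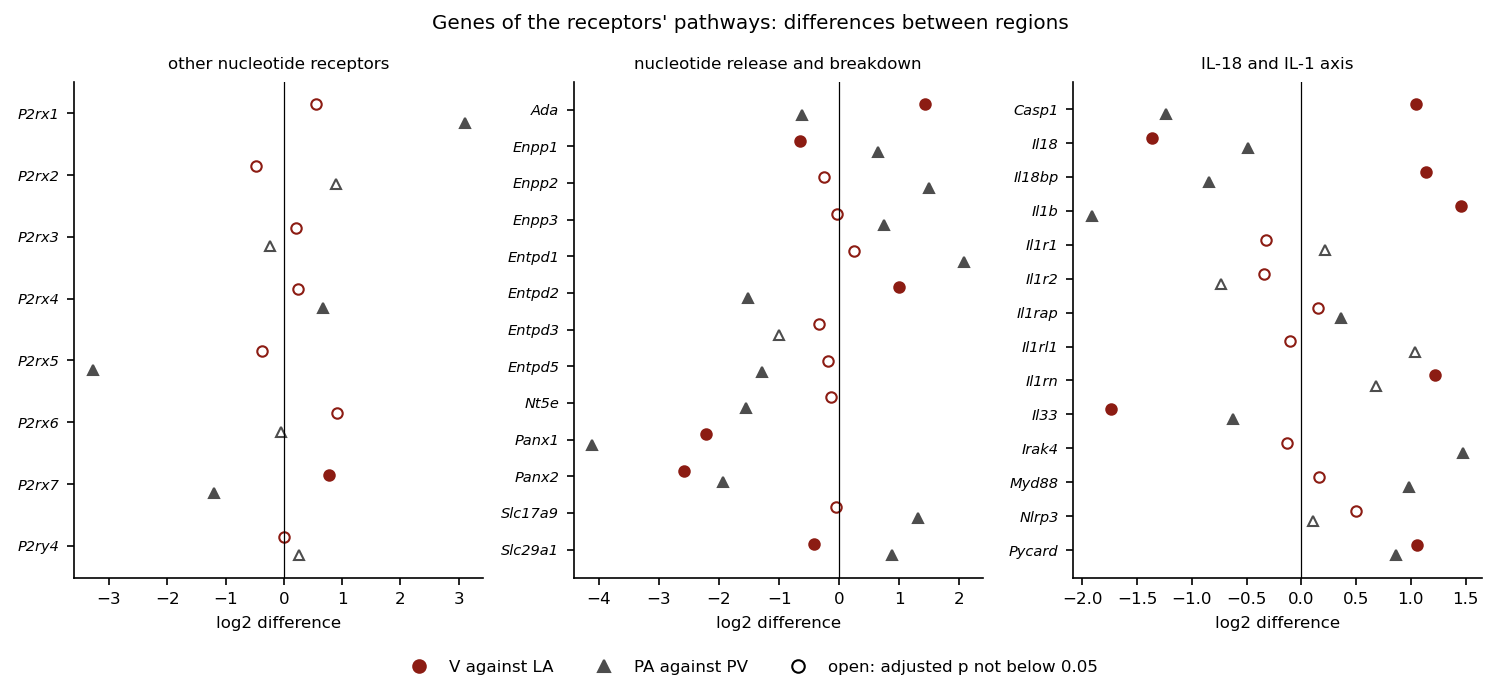
Differences (log2) of genes of 3 pathway lists (nucleotide receptors, nucleotide release and breakdown, interleukin-18 and interleukin-1) for V against LA (circles) and PA against PV (triangles), filled where the adjusted p was below 0.05. *Panx1* and *Panx2* lie far to the left in both comparisons, and *P2rx1* and *Entpd1* lie to the right in PA against PV.

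The genes whose log2 levels followed each receptor most closely over the 23 arrays were drawn from 13108 genes above background on all arrays of at least 1 region. The values are descriptions over 6 regions. *P2ry2* was closest to *Cyth3* (r = 0.979), an exchange factor for Arf proteins, and to *Myh9* and *Tpm3* (both 0.978), which encode nonmuscle myosin and a tropomyosin, and *P2ry6* was close to *Sfxn3* (0.98) and *Ftl1* (0.978). *P2ry12* was closest to *Alox5* (0.898), the leukotriene-forming enzyme of leukocytes, *Cyth4* (0.888) and *Runx1* (0.885). *P2ry13* was closest to *Lilra5* (0.78), *B2m* (0.774) and *Gpr34* (0.768). *P2ry1* was close to *Wscd1* (0.94) and *Pde8b* (0.935), and *P2ry14* to *Vwa7* (0.948), *Slc25a15* (0.944) and *Adora2a* (0.937), an adenosine receptor. After *Cd2*, *P2ry10* was closest to *Ptpre* and *Magix* (both 0.906). *Il18r1* was closest to *Fads6* (0.912), *Cnr2* (0.906), the cannabinoid receptor of immune cells, and *Tmc4* (0.87). *Gpr176* was closest to *Dclk3* (0.901), *Rap1gds1* (0.856) and *Ankrd13a* (0.846), and *Gpr65* to *Hyi* (0.803), *Mrgpre* (0.801) and *Sec14l5* (0.79). The probe of *Gpr65* cleared the background on 9 of the 19 arrays outside PA and on 1 of 4 in PA.

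Among the receptors themselves, *P2ry1* and *P2ry14* had r = 0.872, *P2ry10* had 0.804 with *P2ry14* and 0.791 with *P2ry1*, and *P2ry12* had 0.818 with *P2ry2* and 0.806 with *P2ry6*. *P2ry1* and *P2ry6* ran opposite (r = -0.659). These arrays share tissue and position on the slide, and the correlations carry no p.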

How the data were processed

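RNA of 23 rat heart pieces was hybridised by the authors to one-colour Agilent rat gene expression arrays, and the submitters' processing notes name Agilent Feature Extraction 11.0.1.1. The deposited values are normalized intensities on a linear scale, which the authors scaled to the 90th percentile of each array. This was checked against the scanner's processed signals, where 99.5% to 99.9% of the 45596 probes lay within 2 percent of a single factor per array, and 156 probes had no value. Background flags, which the deposited scanner files hold as 0 or 1, decided which probes were well above background. Median intensities were 103 to 136, and the number of arrays limits the precision.

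Probes were named through the transcript accessions on the array and RefSeq genes of assembly GRCr8, and 6958 probes with Ensembl transcript accessions were not matched. The highest probe of a gene on each array was used, as log2(intensity + 1), so that fold changes understate dim genes. Genes above 4 on at least 1 array were tested (16089 of 16544). A model of the 6 regions over all 23 arrays was fitted with limma 3.58.1 in R 4.3.3, with Benjamini-Hochberg adjustment over all genes tested and calls at 0.05. V was the mean of the LV and RV means. In simulations with 16089 genes, 200 were given a change of 1 on the log2 scale, with independent noise on each array. Of these changes 63%, 55.5% and 57% were recovered for V against LA, LV against RV and PA against PV. In the same order, 8.03%, 2.63% and 4.20% of the calls were false. In the data 35.4%, 0.522% and 53.4% of the genes were called and arrays may share rats. The figures therefore describe the simulated setting only. Sequences and figures were made with Python 3.11.15, pandas 2.3.3 and matplotlib 3.10.9.

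The members, the pathway and marker lists (macrophage, lymphocyte, mast cell, neutrophil, platelet, endothelial cell, smooth muscle cell, fibroblast, adipocyte, ventricular and atrial myocyte, pacemaker) and the tests were chosen with earlier results of these data known. All 10 members are named, with the 3 genes most correlated with each and the 2 largest called changes in each direction of a pathway list, except that some of these genes are not reported here. Alternatives were the scanner signals, 75th percentile scaling, quantile normalization, normexp, 2 other filters, 1 probe per gene, a pseudocount of 16, slide, row and replicate blocks, only the arrays compared, and leaving out each array.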

Additional observations from a re-analysis of the deposited data

Results flagged for a closer look

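In 50 sets of arrays, 1 for each gene and each region with 4 arrays, the gap of an extreme array from its nearest neighbour was compared with the range. In 3 sets a single array stood apart, where chance gives about 1 in 20. *P2ry2* on SA replicate 3 was at 7.40 on the log2 scale, an intensity of 168 against 234 to 249.8 on the other SA arrays. *P2ry6* on PV replicate 1 was at 9.76, an intensity of 867 against 662 to 693 on the other PV arrays. *P2ry14* on PV replicate 3 was at 7.69, an intensity of 205 against 168 to 171.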

How the results depend on the processing

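The alternatives were run for the 10 genes, the counts of calls and the SPM, not for the pathway and marker lists, and for LV against RV single genes were run for *P2ry10* and *Il18r1* only. No called difference of the 10 genes changed direction under them, and V kept the highest SPM for all 10 genes in each of those run for it. Between PA and PV, 8 of the 10 receptors were called, 5 after quantile normalization, and 5 to 9 when 1 array was left out. With 1 array left out, 2 to 4 of the 4 P2Y relatives were called for V against LA, 3 to 4 for V against SA, PV and PA, and 0 of 10 for LV against RV. No pairing by the replicate number of the labels was visible in the deviations of arrays from their regional means. Arrays with the same number had a median correlation of -0.04, and 4 of 23 arrays correlated best with their own number. Deviations also followed the row of arrays (median 0.085 within a row, -0.10 across rows). They therefore cannot show whether arrays with the same number shared rats. With the replicate block, 3 relatives were called for V against LA, 4 against SA, 3 against PV and 4 against PA, 8 receptors for PA against PV, and 0 for LV against RV, so that the call of *P2ry12* against PV was the only one it changed. Over all genes, 84 were called between LV and RV, 13 with only these arrays in the fit, 137 when only genes with signal over background throughout some region were kept, and 41 to 105 with 1 array left out. Normexp moved the median difference of all genes for V against LA from 0.09 to 0.19 and that for V against SA from 0.06 to -0.02, and was run on the median spot signals. Dim probes limited *P2ry10* and *Gpr65* most. The share of probes above background was 77.3% in the median on the first row of arrays and 61.5% on the other row.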
